A study of Sus scrofa with 48 samples.

Results

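Chemokines, interleukins and their receptors were followed in the perirenal adipose tissue (PRAT) of 48 pigs, 12 for each combination of 2 diets and 2 lines, with 1 array per pig. The genes were taken by name from the array annotation, as every symbol that starts with CCL, CXCL, CCR or CXCR and a digit, or with IL and a digit, leaving out IL10 and its receptor chains. The name was carried by 141 probes of 82 genes, and 60 genes had a probe well above background on at least 24 of the 48 arrays, which was asked of every probe tested. The 60 genes stand among 7760 gene symbols with a tested probe. By its name the rule also took in IL4I1, 1 of the 60, which is an enzyme and neither an interleukin nor a receptor. Each gene was represented by its brightest probe, and levels are given as the log2 of the spot signal minus the median of its array. Some probes, those of CCL16, CXCL13, IL13RA1 and IL17RD among them, are annotated to human sequences, and their match to pig transcripts was not checked. The other 22 genes did not pass and are not described further. They are CCL28, CCR3, CCR6, CCR9, IL12A, IL12B, IL12RB2, IL13, IL17A, IL19, IL1RL1, IL2, IL21, IL22, IL23A, IL23RA, IL27RA, IL2RG, IL31RA, IL4, IL7R and IL9.

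The pigs were 132 days old. They were Large White pigs of lines selected in opposite directions for residual feed intake (RFI), the gap between the feed a pig eats and the feed predicted for it, so that low RFI pigs (RFIneg in the labels, RFIpl being the high RFI line) are the more efficient. Both lines received either the HF diet, rich in fat and fiber, or the LF diet, low in fat and fiber and based on starch, with similar energy and protein content. Fat, fiber and starch differed together between the diets, so their effects cannot be told apart, and no unselected line was analysed here. The paper also reports that HF pigs ate less, weighed less and had relatively less perirenal fat. These differences cannot be told apart from diet composition either. All 9 adipocyte markers examined, ADIPOQ, PLIN1 and FABP4 among them, were well above background on all 48 arrays, as the tissue label requires.

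Chemokines are small secreted proteins that attract white blood cells through receptors spanning the membrane. Those of the CC and CXC families differ in the spacing of their first cysteines, and CCR and CXCR receptors bind the respective families. Interleukins are signals between cells: most act through paired receptor chains that start JAK and STAT proteins, whereas members of the IL1 family and their receptors act through MyD88 and NF-kappaB. In adipose tissue these genes are used by adipocytes, fibroblasts, vessel cells and resident immune cells, macrophages above all.

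The probes themselves bear on how far a gene's values can be trusted, since several of the probes of one gene cover the same bases. Among 54 pairs of probes for the same gene, 13 shared a run of at least 20 bases, and such pairs are not independent readings. The 60-base probes for IL6R and IL15 are shown for that reason, 5′ to 3′, with the shared run in capitals. The 2 IL6R probes shared 45 bases and the 2 IL15 probes 29.
IL6R, probe used: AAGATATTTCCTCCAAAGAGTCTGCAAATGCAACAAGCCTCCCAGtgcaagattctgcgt
IL6R, other probe: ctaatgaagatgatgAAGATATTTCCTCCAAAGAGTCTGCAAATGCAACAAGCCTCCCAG
IL15, other probe: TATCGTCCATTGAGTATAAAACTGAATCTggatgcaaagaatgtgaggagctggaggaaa
IL15, further probe: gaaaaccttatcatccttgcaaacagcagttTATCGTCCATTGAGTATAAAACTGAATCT

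The single probe of IL1RN and the probe used for IL13RA2 are shown because the former had the smallest p for diet among the 60 genes and the latter gave the only call between lines. The 3 further IL13RA2 probes overlapped one another by 20 to 56 bases, whereas none of them shared a run of over 6 bases with the probe used.
IL1RN, probe used: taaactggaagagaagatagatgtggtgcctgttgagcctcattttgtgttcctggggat
IL13RA2, probe used: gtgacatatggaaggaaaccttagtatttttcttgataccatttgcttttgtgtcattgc

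The 2 IL1A probes were a different case, since they cover the same stretch but not with the same letters. Laid over each other without gaps they shared 57 positions, of which 3 differed. The 30 bases around these differences are shown with the differing bases in capitals. Counted from the 5′ end of the probe used, the changes toward the other probe were T18G, C19G and A25G.
IL1A, probe used: catgaaggtctgtatTCtagtaActgggag
IL1A, other probe: catgaaggtctgtatGGtagtaGctgggag

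The first question was which of these genes differed between diets. Of the 60 genes, 7 were called higher and 1 was called lower in pigs fed the HF diet, and 52 were not called. The genes called higher were IL6, IL6R, IL1A, IL1RN, IL15, IL16 and IL13RA2, and the gene called lower was IL6ST. None of the chemokines and chemokine receptors among the 60 was called. A call needed a raw p under 0.01, a fold change over 1.1 and a Benjamini-Hochberg (BH) adjusted p under 0.08 in limma over all tested probes. Across all 43355 tested probes 8.58% were called higher and 14.5% lower in HF pigs (23.1% in all), and over 1 probe for each gene symbol 6.34% were called higher and 18.6% lower (24.9% in all). Among the 60 genes the shares were 11.7% higher and 1.67% lower. The median difference between diets (HF minus LF, log2) was 0.039 over the 60 genes and -0.045 over all gene symbols, and 35 of the 60 genes (58.3%) lay above 0 against 37.0% of all gene symbols. The genes were chosen with results of these data known, so these shares are a description.

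The balance of higher and lower calls moved with the scaling of the arrays. Over all probes 3721 were higher and 6284 lower with the median of each array as its zero, 4950 and 4961 with its 75th percentile, 5055 and 4687 after quantile normalization, 4722 and 4399 with normexp background correction before it, 5581 and 5175 on the processed signal, and 10426 and 1775 when arrays were centred on their spike-in controls. Spike-in centring placed the median difference of all probes at 0.085, against -0.022 on the main scale. The 60 genes gave 17 higher calls and none lower with that centring, and 9 higher and none lower after quantile normalization. The 7 genes called higher kept a positive difference under each alternative run, whereas the call of IL6ST was lost under every other scaling.

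**Figure D1:**
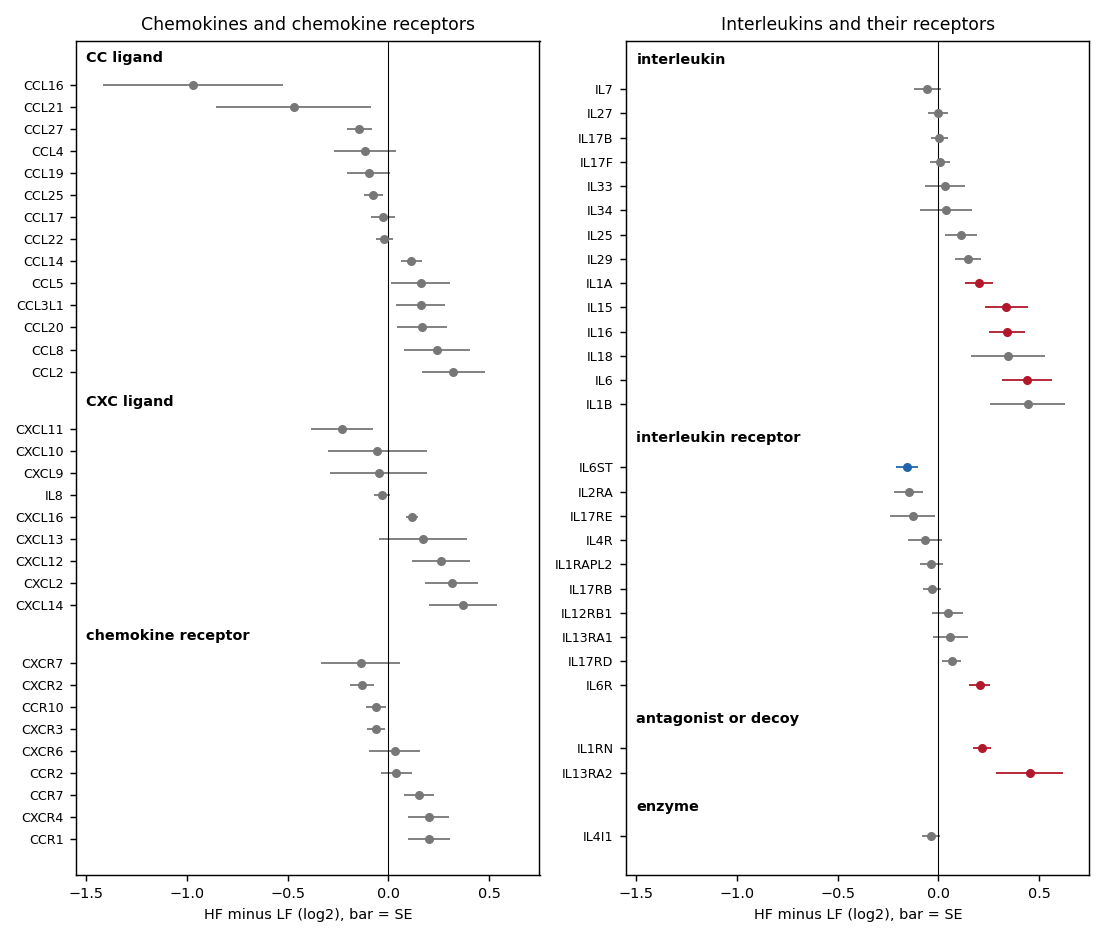
Difference between diets (HF minus LF, log2, x axis) of 59 of the 60 genes, by role, with its standard error. Red points were called higher in HF pigs, the blue point was called lower and grey points were not called. The called genes all lie among the interleukins, their receptors and their antagonists, and CCL16 and CCL21 have the widest errors.

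On the main scale interleukin 6 and IL6R were called higher and IL6ST lower, the last call being lost under every other scaling. IL6 is a cytokine made by immune cells, fibroblasts and adipocytes. It binds IL6R, which then recruits IL6ST, the chain known as gp130 that carries the signal and serves several other cytokines.

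IL6 levels were lowest at -0.92, with a median of -0.27 and a highest value of 0.73, in 24 HF pigs, and ran from -1.20 through a median of -0.80 to 0.21 in 24 LF pigs. The groups overlapped, although 22 of 24 HF pigs lay above the LF median, 5 HF pigs above every LF pig and 8 LF pigs below every HF pig. Means were -0.20 ± 0.47 (SD, n = 24) for HF and -0.64 ± 0.40 (SD, n = 24) for LF, which is a difference of 0.44 on the log2 scale (SE 0.12) or 1.36-fold. limma gave a BH adjusted p of 0.0064. All 4 IL6 probes were higher in HF pigs, by 0.22 to 0.44, and 3 of them were called. The probe used and one other share 55 of their 60 bases, so that the 4 probes amount to fewer separate readings. On the arrays of the first scan day the difference was 0.69 and on those of the second day 0.19, and it was positive on 5 of 6 slides.

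IL6R ranged from -0.71 to 0.22 (median -0.38) in HF pigs and from -0.88 to -0.31 (median -0.53) in LF pigs. A group of 8 HF pigs lay above every LF pig, and 20 of 24 lay above the LF median. The difference was 0.21 (SE 0.053), which is 1.15-fold, with a BH adjusted p of 0.0028 in limma. Each of the 3 IL6R probes was called, the one that shares no run of at least 20 bases with the others by 0.22 (SE 0.057). The difference was 0.11 on the first scan day and 0.30 on the second, and positive on 6 of 6 slides.

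IL6ST went the other way. Its levels ran from 3.59 through a median of 3.85 to 4.13 in HF pigs and from 3.597 through 3.997 to 4.47 in LF pigs. The ranges shared their lower end, 6 LF pigs lay above every HF pig and 4 HF pigs lay above the LF median. The difference was -0.16 (SE 0.055), or 1.11-fold lower in HF pigs, with a BH adjusted p of 0.031 in limma. A second probe gave -0.14 (SE 0.075), which was not called. On the spike-in scale the difference was -0.048 and was not called either, nor was it without the 3 arrays of lowest correlation with the rest (-0.13, BH adjusted p = 0.075).

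The IL1 family was represented by both cytokines and by their natural antagonist. IL1A and IL1B start inflammation through one receptor, and IL1RN occupies that receptor without starting a signal. In the RefSeq order of pig genes IL1A and IL1B are next to each other.

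IL1RN had the smallest p of the 60 genes. It ranged from 0.20 to 0.77 (median 0.53) in HF pigs and from -0.039 to 0.62 (median 0.27) in LF pigs. HF pigs lay above the LF median in 23 of 24 cases, 8 of them above every LF pig, and 5 LF pigs lay below every HF pig. The difference was 0.22 (SE 0.045), or 1.16-fold, with a BH adjusted p of 0.00029 in limma. It was 0.23 on the first scan day and 0.21 on the second, and positive on 6 of 6 slides.

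IL1A ranged from -1.58 to -0.22 (median -0.87) in HF pigs and from -1.48 to -0.60 (median -1.04) in LF pigs. The ranges overlapped almost entirely at their lower end, and 18 of 24 HF pigs lay above the LF median. The difference was 0.20 (SE 0.071), with a BH adjusted p of 0.029 in limma. The second IL1A probe, which differs from it at the 3 bases shown above, gave 0.052 (SE 0.056) and was not called (BH adjusted p = 0.51), and the mean of both probes gave 0.13, also not called. The call was lost as well without the 3 arrays that correlated least with the rest (0.20, BH adjusted p = 0.041). Deviations of the 2 probes from their group means had an r of 0.53 over 48 pigs, against 0.93 for the overlapping IL6 probes and 0.96 for the overlapping IL15 probes. The level was well above background on 45 of 48 arrays.

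IL1B has a near copy in the pig, IL1B2, whose RNA its probe could also read, so its values are uncertain. IL1B, whose difference of 0.44 (SE 0.19) equalled that of IL6, was not called (BH adjusted p = 0.068 in limma, raw p = 0.022). Its values were far more scattered, from -1.40 to 2.05 (median -0.50) in HF pigs and from -1.47 to 0.78 (median -0.80) in LF pigs. The highest value was that of a single HF low RFI pig, ahead of the next at 1.05. IL18, another cytokine of the family that is released in active form after caspase cleavage, differed by 0.35 (SE 0.18) and was not called. IL33, an alarmin held in nuclei, differed by 0.033 (SE 0.099).

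IL15 and IL16 act on lymphocytes. IL15 supports natural killer cells and memory T cells, and IL16 attracts cells that carry CD4.

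IL15 levels ran from 1.33 through a median of 2.13 to 2.85 in HF pigs and from 1.09 through 1.71 to 2.40 in LF pigs. Above the highest LF pig lay 8 HF pigs, and 19 of 24 lay above the LF median. The difference was 0.34 (SE 0.11), or 1.26-fold, with a BH adjusted p of 0.014 in limma. Its 2 further probes, which overlap each other but not the probe used, gave 0.30, called, and 0.27, not called at a raw p of 0.0104. The difference was 0.22 on the first scan day and 0.46 on the second, and positive on 6 of 6 slides.

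IL16 ran from 2.36 through a median of 2.87 to 3.39 in HF pigs and from 1.96 through 2.46 to 3.35 in LF pigs. HF pigs lay above the LF median in 21 of 24 cases, and 7 LF pigs lay below every HF pig. The difference was 0.34 (SE 0.090), or 1.27-fold, with a BH adjusted p of 0.0039 in limma. IL16 had 1 probe, and its difference was positive on 6 of 6 slides.

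IL13RA2 binds IL13 tightly and is regarded as a decoy, unlike IL13RA1, which signals together with IL4R. IL13RA2 ran from 1.01 through a median of 2.01 to 3.43 in HF pigs and from 0.29 through 1.75 to 2.74 in LF pigs. The overlap was wide, with 17 of 24 HF pigs above the LF median and 6 LF pigs below every HF pig. The difference was 0.45 (SE 0.17), or 1.37-fold, with a BH adjusted p of 0.036 in limma. The raw p of 0.0092 was close to the threshold, and the call was lost without the 3 arrays that correlated least with the rest (0.43, BH adjusted p = 0.060). All 4 probes were higher in HF pigs, by 0.28 to 0.45, and 2 of them were called. IL13RA1 differed by 0.059 (SE 0.088) and IL4R by -0.066 (SE 0.083), neither of them called.

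**Figure D2:**
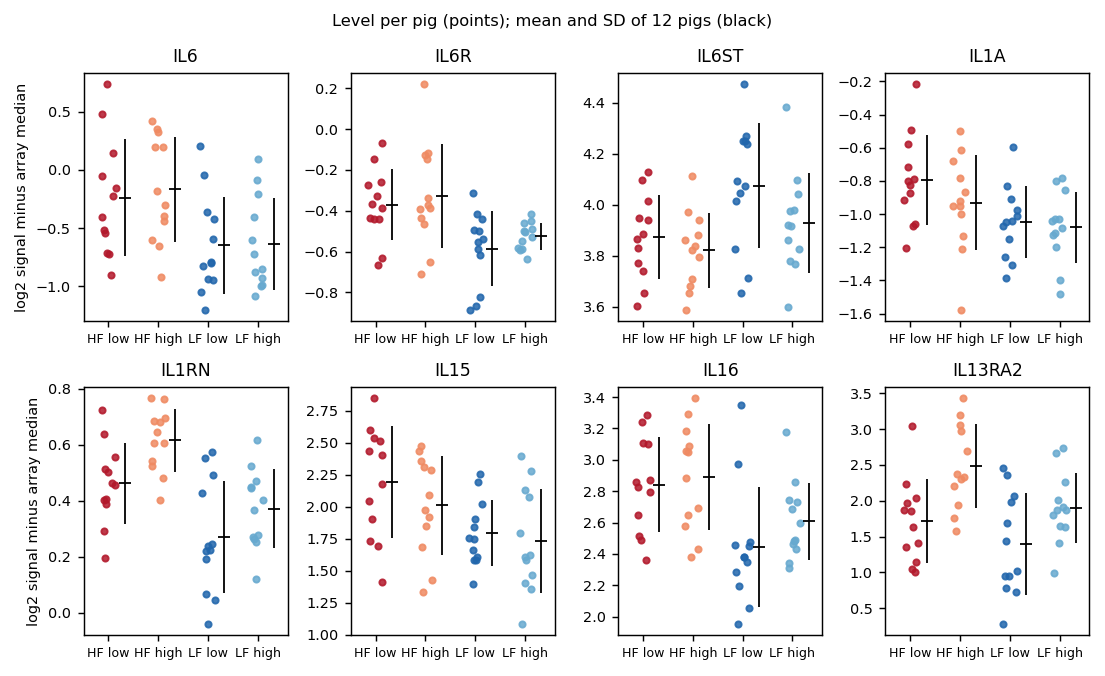
Level (log2 signal minus array median, y axis) of the 8 called genes in each pig, by diet and line (HF or LF, low or high RFI), with the mean and SD of 12 pigs in black. IL6, IL6R, IL1RN, IL15 and IL16 sit higher in both HF groups, IL6ST sits lower, and IL13RA2 differs by line as well as by diet.

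**Figure D3:**
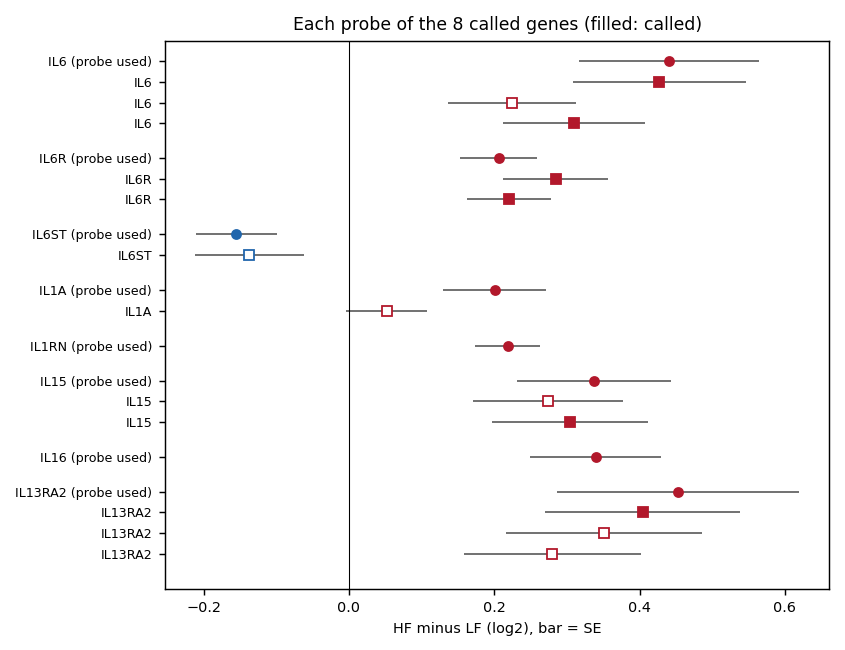
Difference between diets (HF minus LF, log2, x axis) with its standard error for each probe of the 8 called genes. Circles are the probes used, squares the other probes of the gene, and filled symbols were called. Each of the 12 other probes lies on the side of the probe used, and the second IL1A probe lies nearest 0.

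For the genes that were not called, 25 other probes of 17 genes were measured, and 20 of them had the sign of the probe used. CCL19, CCL4, CXCL2, CXCR6 and IL13RA1 each had 1 probe of the opposite sign, none of these called. The 1 called among the 25 was a dimmer probe of CCL5, a chemokine of T cells and macrophages, with a difference of 0.41 (SE 0.13) and a BH adjusted p of 0.015 in limma, whereas the brightest CCL5 probe gave 0.16 (SE 0.15) and the remaining one 0.21, neither called.

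Among the 14 CC ligands, 6 lay above 0 and 8 below, with a median difference of -0.025 and none called. Over all gene symbols 6.34% were called higher and 18.6% lower in HF pigs. CCL2, the main attractant of monocytes, differed by 0.32 (SE 0.16), CCL19 by -0.099 (SE 0.11) and CCL21 by -0.47 (SE 0.39). The last pair share the receptor CCR7 and are next to each other in the RefSeq order. Among the 9 CXC ligands the median was 0.12 and none was called. CXCL16, a ligand of CXCR6 that also takes up oxidised lipoprotein, had a mean level of 4.65 ± 0.074 (SD, n = 24) for HF and 4.54 ± 0.11 (SD, n = 24) for LF. Its difference of 0.12 (SE 0.030) had a BH adjusted p of 0.0031 in limma but stayed under the fold threshold of 1.1, and with each of the other scalings it was called higher. CXCL2, an attractant of neutrophils, differed by 0.31 (SE 0.13, BH adjusted p = 0.066 in limma) and was called after quantile and spike-in scaling. A flagged spot left CXCL2 with 23 LF values, and with the deposited values, which keep that spot, the difference was 0.18 (BH adjusted p = 0.47). CXCL14, which is abundant in epithelia and fat, differed by 0.37 (SE 0.17) and CXCL12, which retains cells through CXCR4, by 0.26 (SE 0.14). The other CXCL12 probes gave 0.28, 0.068 and 0.046, none called. Deviations of the last pair of these probes did not follow those of the probe used (r of -0.099 and 0.064). IL8, the main neutrophil attractant, differed by -0.032 (SE 0.040), a value whose sign turned with spike-in centring.

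The 10 chemokine receptors had a median difference of 0.035, with 6 above 0 and none called, where 6.34% of all gene symbols were called higher and 18.6% lower. CCR1 and CCR2 are found on monocytes and macrophages. They differed by 0.20 (SE 0.10) and 0.039 (SE 0.077), and without the 3 arrays of lowest correlation CCR1, at 0.28 (BH adjusted p = 0.027 in limma), was called higher. CCR7, which guides cells to lymph nodes, differed by 0.15 (SE 0.072), CXCR3, found on activated T cells, by -0.061 (SE 0.044), CXCR4 by 0.20 (SE 0.10) and CXCR7, a scavenger of CXCL12 now named ACKR3, by -0.14 (SE 0.20). Of the 14 interleukins 4 were called higher, beside the 6.34% of all gene symbols, the rest were not called, and the median was 0.13. Of these, IL7, which sustains lymphocytes, differed by -0.055 (SE 0.066). Of the 10 interleukin receptor chains, IL6R was called higher and IL6ST lower.

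Markers of macrophages differed between diets in the same direction as the 7 genes called higher. Of 13 markers 10 were measured, and 7 of them were called higher in HF pigs, CD163, MRC1, AIF1, C1QA, C1QB, C1QC and VSIG4, with a median difference of 0.68 over the 10. Several of these were picked out by the study on these samples, so that their direction is not independent evidence. The mean level of the list ranged from 1.97 through a median of 3.36 to 4.39 in HF pigs and from 1.76 through 2.82 to 4.03 in LF pigs. Of 10 measured T and NK cell markers CD3G, by 0.34, and NKG7, by 0.31, were called higher (median 0.18). In this list 7 markers lay above 0, whereas CD5 (-0.19), NKL (-0.058) and LCK (-0.032) lay below it and were not called. CD5, NKL and LCK were also the brightest of the list. Of the 9 adipocyte markers LEP, by -0.94, CIDEC, by -0.24, and PPARG, by -0.19, were called lower (median -0.14). For PPARG the paper reports the opposite direction by qPCR in this tissue of the same pigs, higher on the HF diet. Over all gene symbols 6.34% were called higher and 18.6% lower in HF pigs. These lists are short, so that their few calls are a description beside those shares. None was called among 6 fibroblast markers (median 0.25), 5 endothelial markers (0.019), 3 neutrophil markers (0.23), 2 mast cell markers (0.095), 2 mesothelial markers (-0.045) or the single B cell (-0.019), erythrocyte (0.078) and adrenal (0.17) markers measured. The part of these cells in the differences of the interleukins was not tested. In whole tissue, fewer cells of a type and less RNA in each cell cannot be told apart.

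The genes that carry the signals inside the cell were called in both directions. Of 23 measured genes of the JAK-STAT pathway, 5 were called higher and 4 lower in HF pigs, where 6.34% of all gene symbols were called higher and 18.6% lower, so that the 4 called lower are near the background share. Those called higher were the kinase JAK3, by 0.30 (SE 0.095), STAT6, by 0.18 (SE 0.048), the phosphatase PTPN6, by 0.36 (SE 0.099), and the feedback inhibitors SOCS2, by 0.38 (SE 0.070), and SOCS3, by 0.40 (SE 0.14). The 4 called lower were CISH, by -0.33, PIAS2, by -0.22, PTPN11, by -0.19, and SOCS5, by -0.14. CISH, PIAS2 and SOCS5 are inhibitors of the pathway, and PTPN11 is a phosphatase that IL6ST recruits. STAT3, the main target of IL6ST, differed by 0.032 (SE 0.033). Of 14 measured genes of the NF-kappaB and MyD88 pathway, the kinase CHUK, by -0.24 (SE 0.076), and the inhibitor NFKBIB, by -0.27 (SE 0.057), were called lower and none higher, which is no more than the 18.6% of all gene symbols called lower. MYD88 differed by -0.035 (SE 0.045). Of 19 further chemokine and cytokine genes, the chemokine XCL1, by 0.45 (SE 0.13), and the receptor CCRL2, by 0.33 (SE 0.10), were called higher and none lower. TNF differed by -0.041 (SE 0.052).

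The next question was whether the lines differed. Only IL13RA2 of the 60 genes was called between lines, where 1.71% of all tested probes were called higher and 1.67% lower in low RFI pigs (3.38% in all). Its levels ran from 0.29 through a median of 1.54 to 3.04 in 24 low RFI pigs and from 0.99 through 2.11 to 3.43 in 24 high RFI pigs. The order of the 4 group means was 1.39 ± 0.71 (SD, n = 12) in LF low RFI, 1.72 ± 0.58 in HF low RFI, 1.90 ± 0.49 in LF high RFI and 2.48 ± 0.59 in HF high RFI pigs. The difference (low minus high RFI) was -0.64 (SE 0.17), that is 1.56-fold lower in low RFI pigs, with a BH adjusted p of 0.022 in limma. It was -0.77 among HF pigs and -0.51 among LF pigs, and it had the same sign on 6 of 6 slides. The 3 further probes gave -0.45, -0.45 and -0.36, the first 2 called. IL1RN was lower in low RFI pigs by -0.13 (SE 0.045), which was not called (BH adjusted p = 0.13). IL34, a ligand of the macrophage receptor CSF1R, was looked at after its values were seen and differed by 0.32 (BH adjusted p = 0.23), not called. Outside the 60 genes, XCL1, also called for diet, was higher in low RFI pigs by 0.49 (BH adjusted p = 0.017 in limma). In the JAK-STAT list JAK2, by 0.23, and STAT5A, by 0.20, were called higher in low RFI pigs. In the NF-kappaB and MyD88 list TRAF6, by 0.88, was called higher and NFKBIA, by -0.28, lower.

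No gene was called for an interaction of diet and line, among the 60 or among all tested probes. At an unadjusted p under 0.05 limma gave 1 of the 60 genes and 1000 of all probes, and under the methods' two-way ANOVA none of the 60 genes was called either. The 1 gene was IL17RD, a receptor that dampens growth factor signals, named after its values were seen. Its diet difference was -0.057 (SE 0.067) in low RFI pigs and 0.19 (SE 0.067) in high RFI pigs, with a raw p of 0.012 for the interaction in limma. Within lines, IL16, IL1RN and IL6R were called higher in HF pigs of low RFI, where 4.48% of all probes were called higher and 8.12% lower (12.6% in all). IL1RN and IL17RD were called higher in HF pigs of high RFI, where 4.52% of all probes were called higher and 9.74% lower (14.3% in all). Of the 8 genes called for diet, each had the same direction in both lines. The differences in low and high RFI pigs were 0.41 and 0.47 for IL6, 0.22 and 0.20 for IL6R, 0.19 and 0.25 for IL1RN, and 0.40 and 0.28 for IL16. They were 0.40 and 0.28 for IL15, 0.25 and 0.15 for IL1A, 0.32 and 0.58 for IL13RA2, and -0.20 and -0.11 for IL6ST. Over all 60 genes, 43 had the same sign in both lines.

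**Figure D4:**
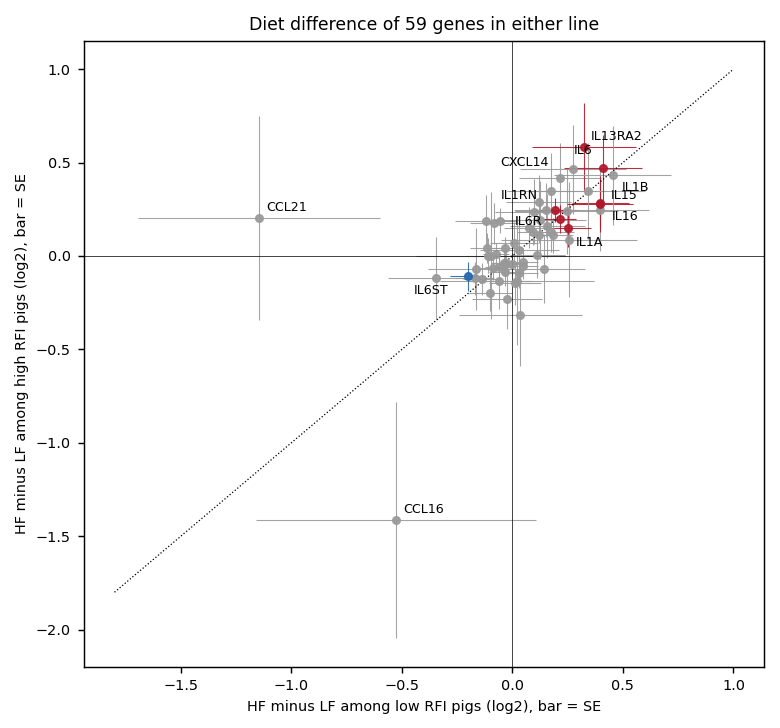
Difference between diets (HF minus LF, log2) of 59 of the 60 genes among low RFI pigs (x axis) and among high RFI pigs (y axis), with standard errors. The dotted line marks equal differences. The genes called higher (red) and lower (blue) lie in the same quadrant in both lines, while CCL21 lies at -1.15 and 0.20 with wide standard errors.

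Some chemokines varied between pigs far more than between groups. The SD within groups was highest for CCL16, at 1.61, followed by CCL21 at 1.39, CXCL10 at 0.88, CXCL9 at 0.87 and CXCL13 at 0.78. CCL16, CXCL11 and CXCL13 are named here after their values were seen.

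CXCL9, CXCL10 and CXCL11 are induced by interferon gamma and share the receptor CXCR3. One LF low RFI pig was the highest of all 48 in each of them, at 5.42 for CXCL9, 7.13 for CXCL10 and 2.06 for CXCL11, against 3.34, 5.29 and -0.62 for the next pig. The same pig was the highest in 13 of the 60 genes, among them CXCL13, CCL2, CCL8, CCL19 and CCR2. Its array had a median correlation of 0.979 with the other arrays, the second lowest of the 48, the lowest being 0.976. Without this pig CXCL9 differed between diets by 0.11 in place of -0.048 and CXCL10 by 0.10 in place of -0.055, neither called. CCL2 was called higher in HF pigs without it, at 0.41 (BH adjusted p = 0.021 in limma). The call of IL13RA2 was lost (0.42, BH adjusted p = 0.052).

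CCL16 was well above background on 30 of 48 arrays. It ran from -1.97 to -0.92 in the 12 HF high RFI pigs, whereas 6 HF low RFI, 6 LF low RFI and 5 LF high RFI pigs lay above every one of them, the highest, one of the LF high RFI pigs, at 4.62. The median over all 48 pigs was -1.35. The difference between diets was -0.97 (SE 0.45) and was not called (BH adjusted p = 0.097 in limma). CCL21, which lymphatic vessels produce, ranged from -0.14 to 5.004 in HF pigs and from -0.11 to 5.47 in LF pigs. Its groups overlapped over nearly the whole range.

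**Figure D5:**
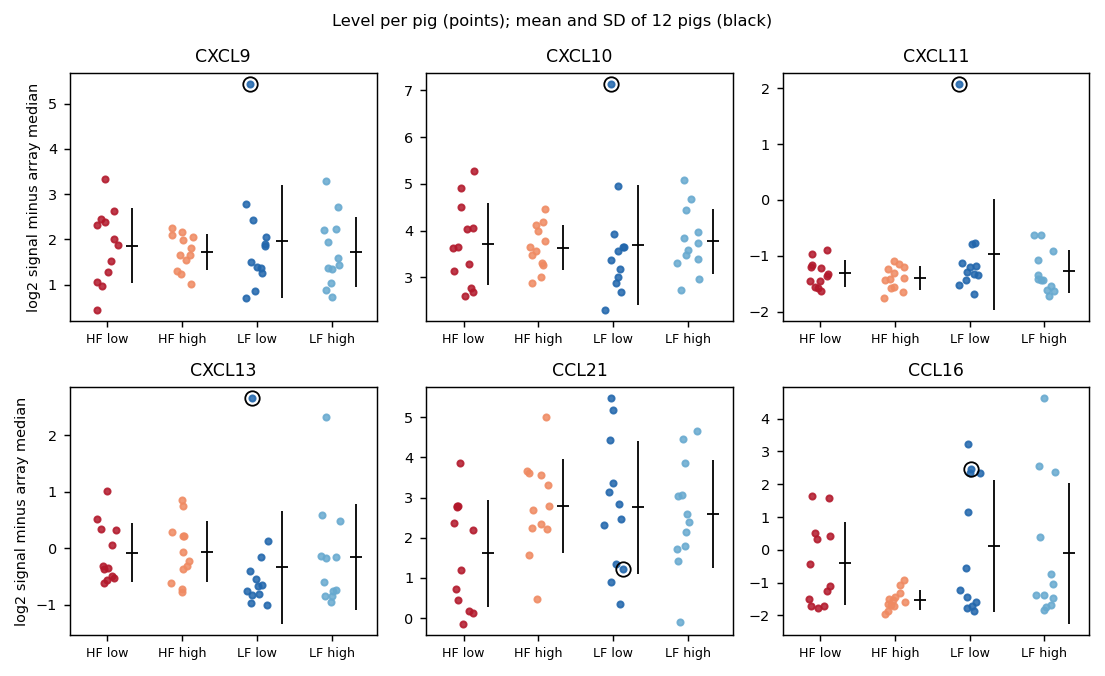
Level (log2 signal minus array median, y axis) of the chemokines with the widest spread and of CXCL11 in each pig by group, with the mean and SD of 12 pigs in black. The circled point is the same LF low RFI pig in each panel, the highest for CXCL9, CXCL10, CXCL11 and CXCL13 but not for CCL21 or CCL16.

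Whether ligands and their receptors varied together from pig to pig was examined on deviations from the group means. Of 34 pairs fixed from known binding or shared complexes, 16 had both genes measured, and 3 had BH adjusted p under 0.05 for both Pearson's r and Spearman's rho in two-sided permutation tests with 100000 resamples within groups. Pigs were exchanged across slides and scan days in these tests. Since pigs on the same slide deviated slightly together, the p-values make no allowance for slides. The values of 2 of the 3 pairs follow. CCL3L1 and CCR1 had an r of 0.49 (p = 0.00077, adjusted 0.0062) and a rho of 0.46 (p = 0.0023, adjusted 0.028) over 48 pigs by permutation, and an r of 0.43 without the 2 pigs farthest from the median of CCL3L1. By group, r was 0.51 in HF low, 0.62 in HF high and 0.64 in LF low RFI pigs, but -0.13 in LF high RFI pigs. The 2 CCL3L1 probes shared no run of over 7 bases, and their deviations had an r of only 0.26. The relation thus holds for the probe used. IL8 and CXCR2 had an r of 0.43 (p = 0.0024, adjusted 0.013) and a rho of 0.39 (p = 0.0073, adjusted 0.039) by permutation, and an r of 0.32 without the 2 pigs farthest from the median of IL8. After quantile normalization this pair was past neither threshold, with an r of 0.32 (adjusted p = 0.084 by permutation) and a rho of 0.27 (adjusted p = 0.13 by permutation). IL8 levels were low and narrow, from -1.40 to -0.79 over the 48 pigs, with an SD within groups of 0.13. Whether array background had a part in its relation to CXCR2 was not tested. Both pairs were positive on both scan days, with r of 0.63 and 0.38 for the former and 0.57 and 0.44 for the latter.

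The attractants of monocytes gave a relation that rested on few pigs. CCL2 and CCR2 had an r of 0.51 (p = 0.0079, adjusted 0.031) and a rho of 0.31 (p = 0.041, adjusted 0.10) by permutation, and r fell to 0.22 without the 2 pigs farthest from the median of CCL2, one of which was the pig with the highest CXCL9. CCL8 and CCR2 had an r of 0.59 (p = 0.016, adjusted 0.050) and a rho of 0.36 (p = 0.017, adjusted 0.069) by permutation, with an r of 0.16 without the 2 farthest pigs. IL6 and IL6R, both called higher in HF pigs, had an r of -0.12 (p = 0.45, adjusted 0.51) and a rho of -0.14 (p = 0.35, adjusted 0.51) by permutation within groups, and IL6R and IL6ST an r of -0.31 (p = 0.027, adjusted 0.073) and a rho of -0.32 (p = 0.030, adjusted 0.097).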

How the data were processed

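Cy3-labelled cRNA of PRAT was hybridised to porcine 60-mer arrays (60306 probes that are no control). The authors' scanner files, as deposited, hold spot intensity and flags per spot. The authors also deposited log2 values of 38142 probes, which they filtered and centred on the median of each array in R 2.10.0. These equal log2 of the median spot signal within 1e-06 once matched by value, but only 2 of its 38142 row labels name the matched probe, so probe names were taken from the scanner files. No genome build is given in the sources used here, and gene order comes from RefSeq's Sscrofa11.1 table.

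Here the log2 median signal, without background subtraction, was centred on the array median. Arrays had a median signal of 115 to 178 and 38689 to 43278 tested probes above background, and no tested spot was saturated. A total of 198 spots flagged as outliers were left out. The number of arrays limits the precision. Arrays lay on 6 slides read on 2 scan days, with 2 arrays of each group on each slide. The arrays that stood farthest apart were 3 LF arrays (median correlation with the others 0.976 to 0.979).

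Moderated tests of diet, of line and of the diet by line interaction came from limma 3.58.1 under R 4.3.3, fitted to the 4 groups over 43355 probes well above background on at least 24 arrays, spots of one probe being averaged. Tested on simulated data for the diet comparison with 43355 probes, it called 72 of 100 probes changed 1.25-fold, 93 of 100 changed 1.5-fold and 20 of 43155 unchanged probes. The simulated probes varied independently of one another and few were changed, whereas 23.1% of tested probes were called for diet in the data. The BH threshold was therefore stricter in the simulation, and its rates do not describe the calls made here. The values of 1 of the 60 genes are not reported here, though it is kept in the counts. Genes were named when called or when on a fixed list of 38 ligands and receptors, with exceptions named as such. Gene lists (JAK-STAT, NF-kappaB and MyD88, further cytokines, and cell markers for adipocyte, macrophage, T and NK, B and plasma, neutrophil, mast, endothelial, fibroblast, mesothelial, kidney and adrenal, and erythrocyte cells) were set with earlier results of these data known, as were the members. Alternatives were other scalings (75th percentile, quantile, spike-in, processed signal, normexp with an offset of 50), other filters, the deposited values, the methods' two-way ANOVA, blocks, array weights, thresholds, either line or diet alone, averaging all probes of a gene, and left-out arrays. Those without the 3 arrays farthest apart and without the pig highest in CXCL9 to CXCL11 were chosen after seeing the data. Python 3.11.15 with numpy 2.4.6, scipy 1.17.1 and pandas 2.3.3 was used for the tables.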

Additional observations from a re-analysis of the deposited data

How the results depend on the processing

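Of 621 values of the named genes under the alternatives, 556 kept their direction and their side of the thresholds, 26 lost a call, 18 gained one and 21 changed sign. The 60 genes gave 5 to 11 higher calls under every alternative but 3, with 11 on the processed signal. The exceptions were a fold over 1.5 (0 higher, 0 lower), low RFI pigs alone (3 higher, 0 lower) and spike-in centring (17 higher, 0 lower). The lower call of IL6ST was also absent (0 lower) with the 75th percentile, processed signal, quantile and normexp scalings, array weights, high RFI pigs alone, averaging all probes of a gene and without the 3 arrays of lowest correlation. The 1 call between lines was absent (0) among HF or LF pigs alone, where 24 pigs entered, and 0 interaction calls were found throughout. Ligand and receptor correlations past both thresholds numbered 6 with group differences kept in and 1 after quantile normalization, against 3.

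Signs turned only for genes that were not called. With spike-in centring CCL19 gave 0.0082, CXCL10 0.052, CXCL9 0.059, CXCR3 0.046, IL4R 0.041, IL7 0.053 and IL8 0.075. Among low RFI pigs alone CXCL10 gave 0.021, CXCR7 0.036, IL33 -0.12 and IL4R 0.011, and among high RFI pigs alone CCL21 gave 0.20, CXCL9 0.0016, IL7 0.00057 and IL8 0.011. With array weights CXCL10 gave 0.081 and CXCL9 0.070, without the 3 arrays 0.13 and 0.084, and without the pig highest in CXCL9 to CXCL11 0.10 and 0.11.

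The labels tie replicate numbers to no shared litter or day, and correlations of the deviations of same-numbered pigs ran from -0.29 to 0.54, with 38 of 72 pairs over 0.1, so the numbers were not taken as a pairing. As a hint from the data and not the design, the median was 0.13 against -0.011 for other numbers, and 17 of 48 pigs correlated best with 1 of the 3 pigs of their own number among 36 in other groups. In all 72 pairs the same-numbered pigs lay on the same slide as each other, and pigs of other numbers had a median of 0.063 on the same slide and -0.016 on other slides. With the replicate number as a block, calls over all probes were 4049 higher and 6848 lower by diet and 1008 and 940 by line (740 and 725 without it), while 7 of the 60 genes were called higher and 1 lower by diet and 1 by line, as without it.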
